A study of Pinctada imbricata with 5 samples.

Results

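Mitochondrial ribosome, respiratory chain, ATP synthase and import genes of a pearl oyster were followed in its pearl sac at 5 times after implantation. The pearl sac is the epithelial pouch that grows out of a graft of donor mantle around a bead and coats it with nacre. Unigenes, which are assembled transcripts, were taken as members when the name of their best protein match held one of a fixed set of phrases for these complexes, with cytochrome P450 and cytochrome b5 left out. The rule uses names and no measured value, and it found 52 of 19415 listed unigenes.

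Each group was 1 tag library of pearl sac, taken on day 10, 15, 20, 30 or 60 after surgical implantation in oysters aged 1.5 years. No genotype, strain or further treatment is given, there is no unimplanted control, and how many sacs or oysters went into a library is not stated. The labels name the species Pinctada imbricata and the title Pinctada martensii. Tags are 21-base fragments that start at a CATG site near the 3′ end of a messenger RNA, so the number of copies of a tag counts transcripts and is not a length-corrected level.

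Mitochondria carry a ribosome of their own, whose protein subunits are encoded in the nucleus, made in the cytosol and imported. It translates a handful of membrane subunits of the respiratory chain, which are assembled with many more imported subunits. Complex I takes electrons from NADH, complex II from succinate, complex III passes them on through cytochrome c, complex IV hands them to oxygen, and complex V, the ATP synthase, uses the resulting proton gradient to make ATP.

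By role, 8 members were proteins of the small subunit of the mitochondrial ribosome and 20 of the large subunit. A further 7 belonged to complex I, 3 to complex II, 3 to complex IV and 7 to complex V, of which 1 is an assembly factor. Protein import was represented by 1 unigene, a TIM17-like translocase, so the import side of the name rests on 1 member. No member matched complex III or cytochrome c. The other 3 were subunits of the vacuolar ATP synthase, a proton pump of other membranes that shares the phrase "ATP synthase", and they are kept apart. Component terms of the gene ontology were given for 29 members, and those of 14 held the word mitochondria or a form of it. Only 1 match was to a Pinctada protein, the ATP synthase beta subunit, and 2 in all were to molluscs, so names rest on distant relatives such as insects and vertebrates.

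The 5 libraries held 4700927 to 4784094 tags, of which 12.8% to 28% were listed for unigenes. Levels are given as tags and as scaled TPM, which is the deposited TPM, a share of all tags of the library, divided by a TMM factor that sets typical genes level between days (0.878 to 1.16). A single unigene, Unigene51171, took 20.1% to 60.1% of the listed tags. The day 15 library stood apart in its markers of other cell types. Its 31 motile cilia and sperm unigenes summed to 148 scaled TPM, against 6.24 to 13.1 on the other 4 days, and 26 of them were listed there, against 5 to 7. The 4 of these that reached 10 scaled TPM did so on day 15 alone, so they had to stand high there. All 4 were higher on day 15 than on day 10 and lower on day 20. Over all unigenes compared, 20.3% were higher and 27.1% lower in these comparisons. Nacre matrix proteins, which mark nacre-forming epithelium, had their lowest sum there, with 12 unigenes summing to 142, 2.16, 26.9, 97.6 and 28.5 scaled TPM in order of day. Of the 12, the number listed was 11, 3, 3, 4 and 2. The largest unigene of each day gave 219, 5, 111, 356 and 152 of their 638, 12, 116, 403 and 155 tags. The higher sums of days 20, 30 and 60 thus rest on 1 unigene in each library. The part of such differences in the mitochondrial values was not tested. In bulk samples a change in the share of a cell type and a change of RNA per cell cannot be told apart.

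With 1 library per day there is no spread between oysters to compare with, so no test was made and no p-value is given. Intervals are 95% intervals from the counts and cover counting error only. To be called higher or lower a member needed a level of 10 scaled TPM, equal to 41.3 to 55.5 tags, on the higher of the days compared, and a ratio whose full interval was beyond 2-fold. Of the 52 members 13 reached that level on at least 1 day and 39 did not, so most of the mitochondrial genes were too scarce to be compared. All 13 reached it on day 15, and 6 to 7 did so on each other day. Of these, 4 reached it on day 15 alone, which makes their highest day a consequence of the level rule.

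The tag that carried most copies of each of the 13 members is shown here because every value below is a count of it and of its few neighbours on the same transcript. Capitals mark the CATG cutting site at the 5′ end, and the sequences are the deposited tags, 5′ to 3′.
Ribosomal protein S21: CATGcagacgtggttcagaag
Ribosomal protein S25: CATGacattcaagaactttac
Ribosomal protein S26: CATGgacattacaactctgcc
Ribosomal protein L12-like: CATGaattcagacgctcttat
Ribosomal protein L37: CATGaacgaagctacgttaaa
Ribosomal protein L41: CATGatgtggcacctactgga
Complex I 42 kDa subunit: CATGgtctttcacctgaagat
Complex I beta subcomplex 7: CATGtcgtaggtcactacaac
Cytochrome c oxidase IV-like: CATGctgagagaaaaagagaa
Cytochrome c oxidase 5A: CATGttactgaagtgtcacta
ATP synthase beta: CATGgtgggtaacatcgaaga
ATP synthase gamma: CATGcagcgagcagagctcta
ATP synthase delta: CATGatgttaaagtgccttaa
Of the 120 distinct tags of the 52 members, 0 were listed for another unigene, and 25 members had a single tag. In 11 of the 13 the leading tag lay at the CATG site nearest the 3′ end. The exceptions were cytochrome c oxidase 5A, with its leading tag at site 3 from that end, and ATP synthase delta, at site 2.

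Summed over all members, tags were most numerous on day 15. Summed tags were 3001, 10516, 2482, 2471 and 4414 on days 10, 15, 20, 30 and 60. In scaled TPM the sums were 669, 1890, 575, 599 and 811. Day 15 was thus 2.83-fold above day 10 (2.72 to 2.95) and day 20 was 3.29-fold below day 15 (3.15 to 3.44), while days 20 and 30 differed by 1.04-fold (0.984 to 1.1). ATP synthase beta alone gave 1954, 4023, 1140, 1190 and 1671 of these tags, so the sum leans on it. Without it, day 15 was 5.01-fold above day 10 (4.69 to 5.35) and day 20 was 3.76-fold below day 15 (3.54 to 3.99). Day 60 was then 2.16-fold above day 10 (2.01 to 2.32), against 1.21-fold with beta (1.16 to 1.27). The sum without beta leans on cytochrome c oxidase IV-like in turn. That unigene gave 213 of 1047 tags on day 10, 3070 of 6493 on day 15 and 1492 of 2743 on day 60. The number of members listed moved the same way, with 33, 43, 26, 27 and 39 in order of day, as did the number of all unigenes listed, with 9586, 11675, 8824, 9243 and 10456.

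**Figure D1:**
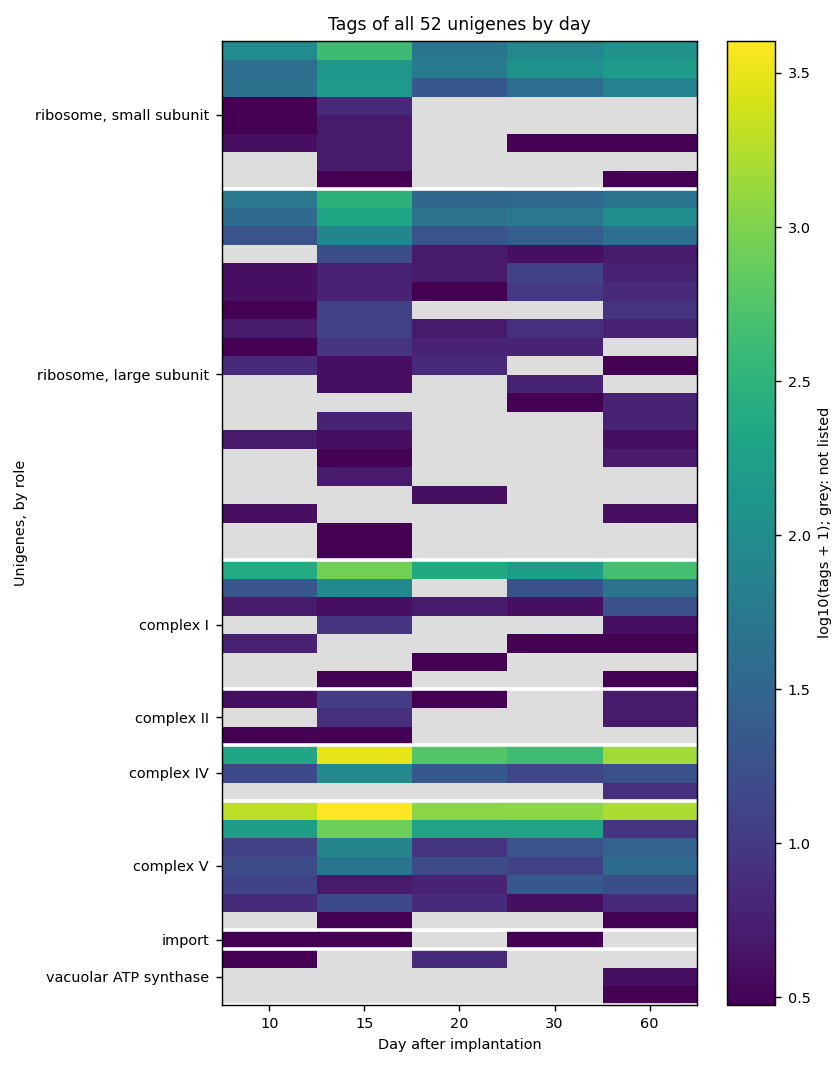
Tags of each of the 52 members (rows, grouped by role) in each library (columns, day after implantation), as log10 of tags plus 1, with grey where a unigene was not listed. Most rows are dark or grey, and of the 13 bright rows, the members at or above 10 scaled TPM, all but ribosomal protein S26 are brightest on day 15.

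From day 10 to day 15, 10 of the 13 members compared were higher and 0 were lower. Over all 1669 unigenes compared, 20.3% were higher and 24.0% lower. From day 15 to day 20, 12 of the 13 were lower and 0 higher, where 27.1% of all were lower and 25.2% higher. Both comparisons use the same day 15 library, so they are 1 observation of that library seen from either side. The 4 members that reached the level on day 15 alone had to stand high there, and they are among both counts. Of the 9 that reached it on another day too, 6 were higher on day 15 than on day 10 and 8 lower on day 20 than on day 15. The median log2 ratio over all 52 members, with 1 scaled TPM added to each level, was 0.56 from day 10 to 15 and -0.63 from day 15 to 20, and over all 19415 unigenes it was 0.00 in both. Unigenes listed on neither day count as 0 in these medians. Over those listed on at least 1 of the days compared, the medians were 0.69 and -0.78 for 46 members, against 0.32 and -0.44 for all, which has the same sign and is smaller.

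Day 15 was the highest day of 12 of the 13 members that reached the level, against 26.3% of all 2196 unigenes that did. The 4 members that reached it on day 15 alone had to be highest there. Of the 9 that reached it on another day too, all but S26 were highest on day 15. For those 12 the interval of the ratio to the next highest day lay above 1-fold, and that next day was day 60 in 7 of them and day 10 in 3. The stricter call of a peak, which asks for more than 2-fold over each other day, was met on day 15 by 4 members, namely S21, L41, ATP synthase gamma and cytochrome c oxidase 5A, where 9.24% of all unigenes peaked. Of these, cytochrome c oxidase 5A reached the level on day 15 alone. No member peaked on day 10, 20, 30 or 60, where the shares of all unigenes were 3.69%, 5.97%, 1.87% and 3.73%. Among the 39 members under the level, 16 had their highest scaled TPM on day 15 (41%), against 29.9% of all unigenes under it.

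**Figure D2:**
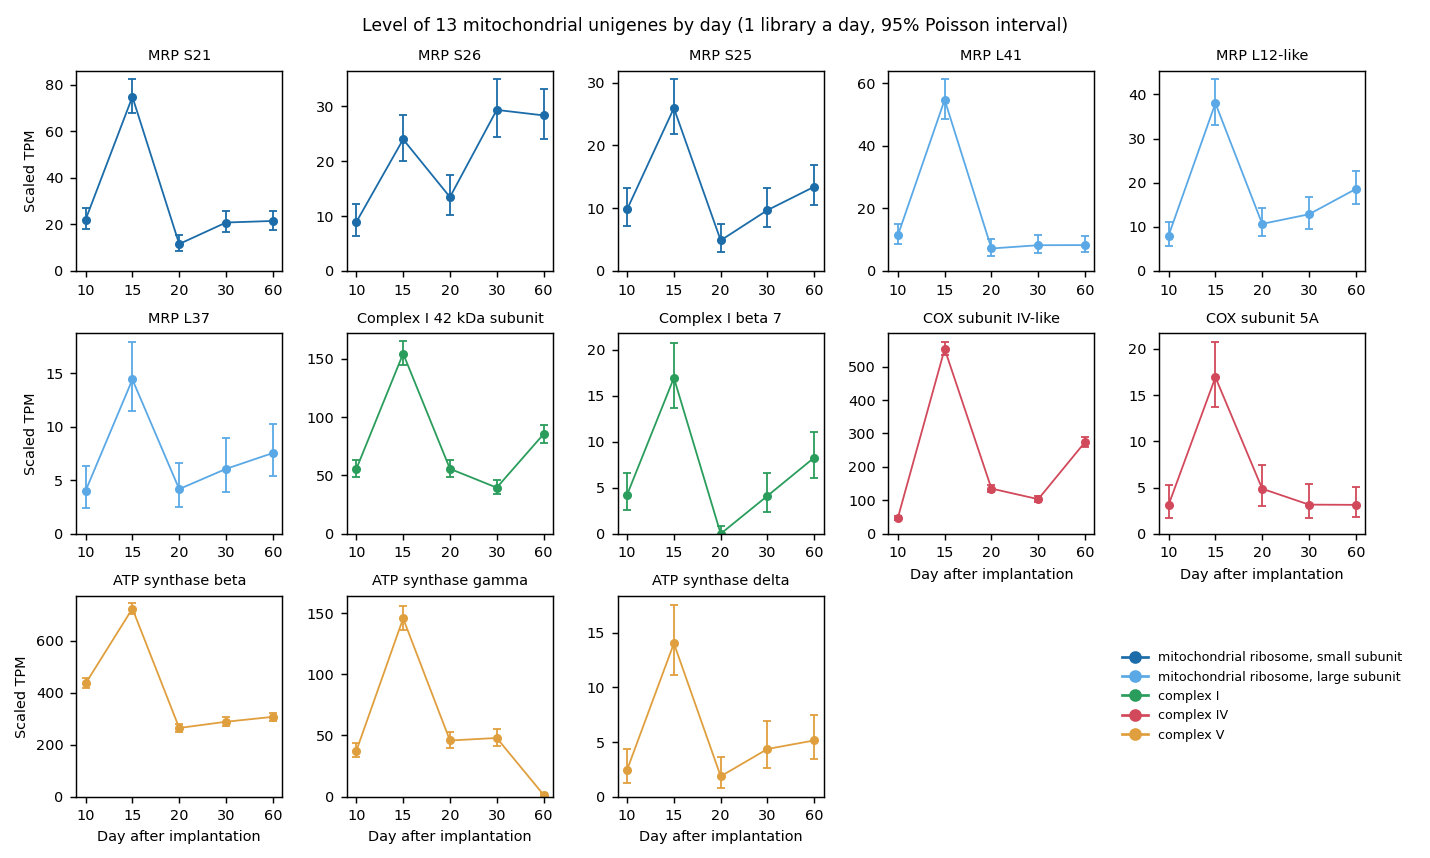
Scaled TPM of the 13 members at or above 10 scaled TPM, by day after implantation, each on its own axis from 0 (MRP, mitochondrial ribosomal protein; COX, cytochrome c oxidase). Points are single libraries and bars are 95% Poisson intervals of the counts; all but MRP S26 are highest on day 15, and ATP synthase gamma is at 1.47 scaled TPM on day 60.

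Small subunit proteins of the mitochondrial ribosome, which bind the messenger RNA, were led by S21, S25 and S26. Ribosomal protein S21 (Unigene82869) had 99, 416, 50, 86 and 117 tags on days 10, 15, 20, 30 and 60. Day 15 stood alone and day 20 was lowest. It was 3.39-fold higher on day 15 than on day 10 (2.72 to 4.27) and 6.46-fold lower on day 20 (4.81 to 8.85).

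Ribosomal protein S25 (Unigene10325) had 44, 144, 21, 40 and 73 tags in the same order of days. It too was highest on day 15 and lowest on day 20, but the first of these steps missed the call. Day 15 was 2.64-fold above day 10 (1.87 to 3.79), and day 20 was 5.33-fold below day 15 (3.36 to 8.87). Of the 144 tags of day 15, 77 were of a tag that differs from the leading tag at 1 base. The leading tag alone had 64 copies on day 15 and 73 on day 60, so day 60 was its highest day.

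Ribosomal protein S26 (Unigene88500) departed from the others, with 40, 133, 58, 121 and 154 tags. Its scaled TPM was 29.3 on day 30 and 28.3 on day 60, which differed by less than counting error, and 24.0 on day 15. Its step up to day 15 of 2.69-fold (1.87 to 3.93) and its step down to day 20 of 1.78-fold (1.3 to 2.47) both missed the call. It was 3.17-fold higher on day 60 than on day 10 (2.23 to 4.61), as 1 of 2 members called higher in that comparison.

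The remaining 5 small subunit members had at most 6 tags in a library. S22 (Unigene64642) had 2 tags on day 10 and 6 on day 15 and was not listed later. S6 (Unigene79056) had 2 and 4 on the same days. All 8 small subunit members were listed on day 15, against 6 on day 10 and 3 on day 20.

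Large subunit proteins, which surround the site where peptide bonds form, were compared for L12-like, L37 and L41. Ribosomal protein L41 (Unigene88396) had 51, 304, 31, 34 and 45 tags on days 10, 15, 20, 30 and 60. Day 15 was far above the rest, which lay close together. It was 4.81-fold higher on day 15 than on day 10 (3.57 to 6.61) and 7.62-fold lower on day 20 (5.26 to 11.4).

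The L12-like protein (Unigene89745) belongs to the flexible stalk that recruits translation factors. It had 36, 211, 46, 53 and 101 tags. It was 4.73-fold higher on day 15 (3.31 to 6.94) and 3.56-fold lower on day 20 (2.58 to 5.02). Day 60 was second, at a level 2.05-fold below day 15 (1.61 to 2.62). Of the 101 tags of day 60, 55 were of a tag that differs from the leading tag at 1 base. The leading tag alone had 30, 205, 44, 53 and 44 copies, so day 30 was its second day.

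Ribosomal protein L37 (Unigene87747) had 18, 80, 18, 25 and 41 tags. It reached 10 scaled TPM on day 15 alone. It was 3.59-fold higher there than on day 10 (2.13 to 6.36), and day 20 was 3.45-fold lower (2.05 to 6.12), so both calls stand close to the 2-fold limit.

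The other 17 large subunit members had at most 16 tags in a library. L20 (Unigene74610) was not listed on day 10 and had 16, 4, 3 and 4 tags on the later days. L54 (Unigene85138) had 3, 5, 4, 11 and 5 tags. Of the 20 large subunit members 17 were listed on day 15, 14 on day 60 and 10 to 11 on each other day.

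Summed over the 28 ribosomal members, the level was 71.8, 250, 58.4, 97.6 and 108 scaled TPM in order of day. Day 15 was 3.48-fold above day 10 (3.08 to 3.94) and day 20 was 4.28-fold below day 15 (3.74 to 4.91). The small subunit sum was 42.4, 128, 29.9, 60.3 and 64.0 scaled TPM and the large subunit sum 29.4, 122, 28.5, 37.3 and 43.6. From day 20 to day 30 the small subunit sum was 2.02-fold higher (1.62 to 2.51) and the large subunit sum 1.31-fold (1.03 to 1.67), and S26 gave 121 of the 249 small subunit tags of day 30.

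Complex I was carried by a pair of accessory subunits. The match to the 42 kDa subunit of NADH-ubiquinone oxidoreductase (Unigene92462) had 249, 857, 240, 163 and 464 tags on days 10, 15, 20, 30 and 60. Day 15 was highest, day 60 second and day 30 lowest. It was 2.78-fold higher on day 15 than on day 10 (2.41 to 3.21) and 2.77-fold lower on day 20 (2.4 to 3.21). Day 60 was 2.16-fold above day 30 (1.8 to 2.6), which missed the call.

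Beta subcomplex subunit 7 (Unigene73343), a small subunit of the membrane arm, had 19, 94, 0, 17 and 45 tags. It was absent from the list on day 20 only. It was 4.0-fold higher on day 15 than on day 10 (2.42 to 6.93) and, against a floor of 3 tags, at least 24.3-fold lower on day 20.

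The other 5 complex I members stayed at or under 17 tags. Alpha subcomplex subunit 5 (Unigene75628) had 4, 3, 4, 3 and 17 tags and so was highest on day 60. Beta subcomplex subunit 8 (Unigene84825) had 8 tags on day 15 and 3 on day 60 and was not listed on the other days. Complex II, which also acts in the citric acid cycle, stayed under the level: its iron-sulfur subunit (Unigene87584) had 3, 10, 2, 0 and 4 tags. Its membrane subunit C (Unigene87535) had 7 tags on day 15 and 4 on day 60 alone.

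Complex IV was carried by 1 unigene, which gave 3070 of its 3164 tags on day 15. The cytochrome c oxidase subunit IV-like unigene (Unigene85613), a match to a nuclear-encoded regulatory subunit, had 213, 3070, 583, 427 and 1492 tags on days 10, 15, 20, 30 and 60. Day 15 was highest, day 60 second and day 10 lowest, and day 15 was 2.02-fold above day 60 (1.89 to 2.15). It was 11.6-fold higher on day 15 than on day 10 (10.1 to 13.4) and 4.09-fold lower on day 20 (3.74 to 4.48). It was higher again on day 60, by 2.65-fold over day 30 (2.38 to 2.96) and by 5.77-fold over day 10 (5 to 6.7).

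Cytochrome c oxidase subunit 5A (Unigene85283), a neighbour of subunit IV on the matrix side of the complex, had 14, 94, 21, 13 and 17 tags. Only day 15 stood out. It was 5.42-fold higher on day 15 than on day 10 (3.08 to 10.3) and 3.48-fold lower on day 20 (2.15 to 5.88). These values come from CATG site 3; the site nearest the 3′ end gave 2, 0, 7, 2 and 2 tags, so on that site alone day 15 is the lowest day. The third member, a subunit VIb match (Unigene79070), had 7 tags on day 60 and was not listed otherwise.

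**Figure D3:**
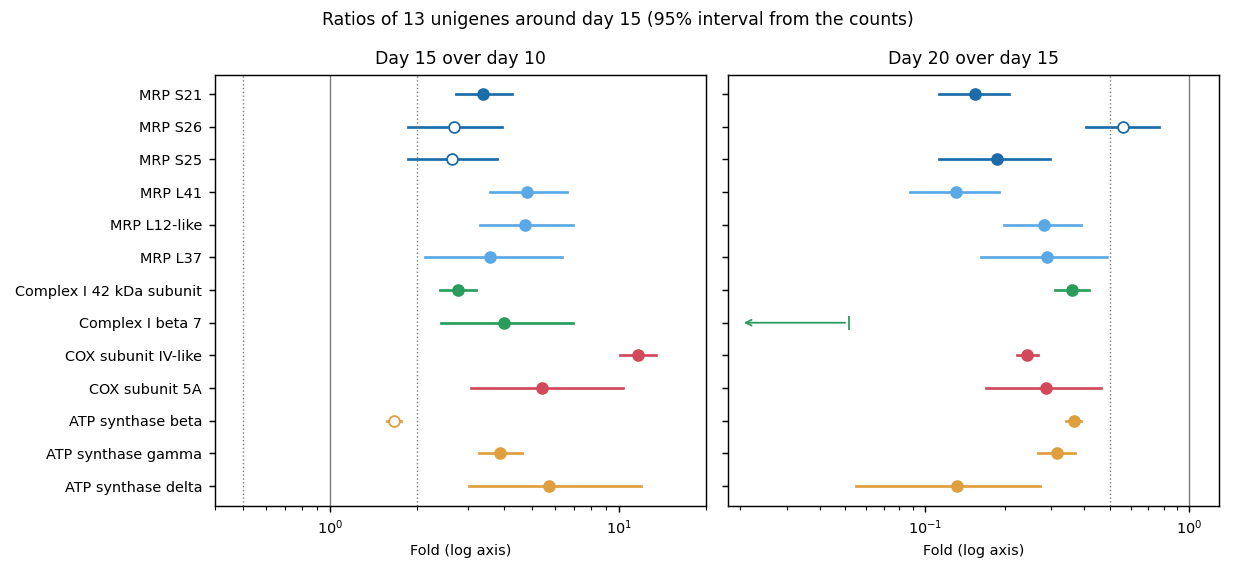
Ratio of scaled levels from day 10 to 15 (left) and from day 15 to 20 (right) for the 13 members, on log axes, with 95% intervals from the counts; filled points met the call, open points did not, and the arrow marks a member with 0 tags on day 20. Dotted lines stand at 2-fold; cytochrome c oxidase (COX) IV-like lies farthest right at 11.6-fold, and S26 is the only open point on the right.

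Complex V was compared for 3 subunits of its catalytic head and stalk. ATP synthase beta (Unigene59783), which carries the catalytic sites, had 1954, 4023, 1140, 1190 and 1671 tags on days 10, 15, 20, 30 and 60. Day 15 was highest and day 10 second. Its step from day 10 to day 15 was 1.66-fold (1.57 to 1.76), below the call in spite of a narrow interval, and it was 2.74-fold lower on day 20 (2.57 to 2.93).

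ATP synthase gamma (Unigene66591), the rotating shaft of the head, had 168, 810, 198, 198 and 8 tags. It was 3.89-fold higher on day 15 (3.29 to 4.63) and 3.18-fold lower on day 20 (2.72 to 3.73). Day 60 was then 32.6-fold below day 30 (16.2 to 76.6) and 25.5-fold below day 10 (12.6 to 60), which made it the only member called lower in either of these comparisons. On day 60 beta and delta stood at 307 and 5.15 scaled TPM, against 288 and 4.36 on day 30. Of the 8 gamma tags of day 60, 4 were the leading tag and 4 a tag of the same site with 9 copies in all libraries.

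ATP synthase delta (Unigene79942), a part of the central stalk, had 11, 78, 8, 18 and 28 tags. It was 5.73-fold higher on day 15 (3.03 to 11.9) and 7.57-fold lower on day 20 (3.66 to 18.2). Its tags were split between sites. Site 2 gave 11, 46, 5, 7 and 15 copies of the leading tag, while the main tag of the 3′ site gave 0, 32, 3, 11 and 10.

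Under the level, the F1 assembly factor 2 match (Unigene75145), a chaperone that helps build the catalytic head, had 15, 48, 15, 11 and 36 tags. The F0 subunit b match (Unigene87560), of the stator stalk, had 12, 4, 5, 21 and 16 tags and so was lowest on day 15. The complex V sum was 483, 897, 318, 349 and 325 scaled TPM. Its step from day 10 to 15 was 1.86-fold (1.76 to 1.95) and rests on beta, which gave 4023 of the 4979 tags of day 15. Without beta it was 3.64-fold (3.14 to 4.25), and gamma gave 810 of the 956 tags then left on day 15. The step of complex I was 2.81-fold (2.46 to 3.22), with 857 of its 964 tags of day 15 from the 42 kDa subunit. Complex IV stood at 11.3-fold (9.84 to 12.9), and at 5.42-fold (3.08 to 10.3) without its subunit IV-like unigene.

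The TIM17-like import unigene (Unigene86291), part of the channel in the inner membrane, had 2, 2, 0, 2 and 0 tags, too few to compare. Vacuolar ATP synthase subunit H (Unigene84510) had 2 tags on day 10 and 6 on day 20, and subunit F (Unigene85522) had 3 on day 60. None of the 3 vacuolar subunits was listed on day 15.

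After day 20 little passed the call. From day 20 to 30, 0 of 7 members compared were higher and 0 lower, against 20.2% and 18.8% of all unigenes. From day 30 to 60, 1 of 8 was higher, cytochrome c oxidase IV-like, and 1 lower, ATP synthase gamma, against 15.5% and 15.3% of all. From day 10 to 60, 2 of 9 were higher, cytochrome c oxidase IV-like and S26, and 1 lower, again gamma, against 14.4% and 19.0%. In the last 2 of these comparisons the shares of members called were near those of all unigenes. Medians over the 52 members were 0.00, 0.14 and 0.08 on the log2 scale in these 3 comparisons, and 0.00 over all unigenes in each. Over unigenes listed on at least 1 of the days they were 0.21, 0.44 and 0.42 for members and 0.02, 0.13 and 0.10 for all.

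**Figure D4:**
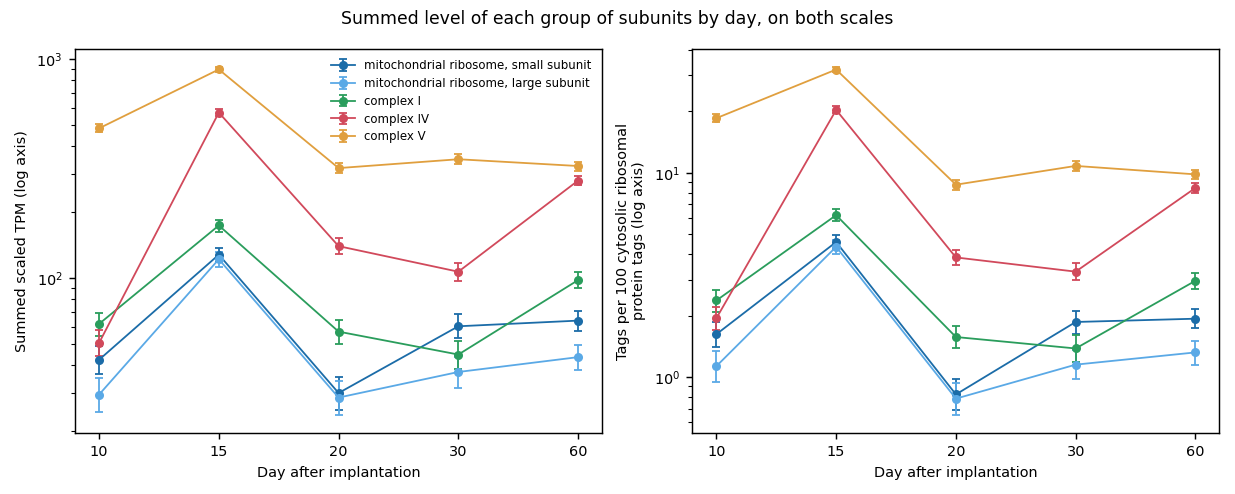
Summed level of 5 groups of subunits (both parts of the mitochondrial ribosome and complexes I, IV and V) by day after implantation, on log axes, as scaled TPM (left) and as tags per 100 tags of 19 cytosolic ribosomal protein unigenes (right), with 95% intervals of the summed counts. These 5 groups are highest on day 15 on both scales; complex IV, carried by its subunit IV-like unigene, goes from 1.94 to 20.3 tags per 100 cytosolic ribosomal tags between day 10 and day 15.

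Cytosolic ribosomal proteins, the counterparts outside the mitochondrion, gave a scale that does not rest on the TMM factors. Their 19 unigenes summed to 2610, 2800, 3640, 3250 and 3310 scaled TPM. From day 10 to 15, 0 of 7 compared were higher and 0 lower, against 20.3% and 24.0% of all unigenes. From day 15 to 20, 3 of 8 were higher and 0 lower, against 25.2% and 27.1% of all. The largest of these 3 rises were L22e (Unigene79656), at 41-fold (31.1 to 55.2), and S15-like (Unigene72970), at 3.08-fold (2.12 to 4.55). These genes were not steady one by one. From day 30 to 60, 2 of 9 compared were lower and 0 higher, against 15.3% and 15.5% of all unigenes. The pair was L22e, lower by 203-fold (110 to 424), and S10 (Unigene86218), by 3.24-fold (2.99 to 3.51). The S10 unigene had 1967, 2575, 4799, 2150 and 875 tags and was also 2.14-fold lower on day 30 than on day 20 (2.03 to 2.25). From day 10 to 60, 2 of 8 compared were lower and 0 higher, against 19.0% and 14.4% of all unigenes. It was the same pair, L22e by 8.61-fold (4.42 to 18.7) and S10 by 2.73-fold (2.52 to 2.96). Per 100 cytosolic ribosomal tags, mitochondrial ribosomal tags numbered 2.75, 8.92, 1.61, 3.01 and 3.25 in order of day. All 52 members together numbered 25.6, 67.6, 15.8, 18.4 and 24.5, so that day 15 was the high point against this yardstick as well. Day 60 lay near day 10 with ATP synthase beta counted. Without it the members had 1047 tags on day 10 and 2743 on day 60, against 11710 and 17991 cytosolic ribosomal tags. Of the 1047 and 2743, cytochrome c oxidase IV-like gave 213 and 1492. The yardstick leans on L23a (Unigene61228), which gave 5346 and 10252 of the cytosolic ribosomal tags of these days.

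Other genes of mitochondrial metabolism were counted by name lists. Of 8 mitochondrial chaperones and proteases, 1 of 5 compared was higher on day 15 than on day 10 and 2 were lower on day 20. Over all unigenes compared these shares were 20.3% and 27.1%, so the first count was near that of all. HSP60 (Unigene89867), which folds imported proteins, had 5, 73, 11, 4 and 14 tags and met both calls. It reached the level on day 15 alone, so it had to stand high there. The partner of HSP60, HSP10 (Unigene20937), had 60, 184, 38, 31 and 80 tags and was 3.76-fold lower on day 20 than on day 15 (2.64 to 5.48). Prohibitin (Unigene88741), a scaffold of the inner membrane, did not pass in any comparison.

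Of 16 unigenes of fatty acid oxidation 1 was abundant enough to compare. The electron transfer flavoprotein beta (Unigene86341), which feeds electrons from fatty acids into the chain, had 122, 413, 43, 58 and 50 tags. It was 2.73-fold higher on day 15 than on day 10 (2.23 to 3.37), 7.46-fold lower on day 20 (5.44 to 10.5) and 2.96-fold lower on day 60 than on day 10 (2.11 to 4.2).

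Glycolysis, which runs in the cytosol, was compared for 2 of 14 unigenes. Both were higher on day 15 and lower on day 20, against 20.3% and 27.1% of all unigenes. Both reached the level on day 15 alone, so they had to stand high there. Glyceraldehyde 3-phosphate dehydrogenase (Unigene36947) had 9, 69, 5, 6 and 15 tags, and was 6.19-fold higher (3.08 to 14.1) and then 10.7-fold lower (4.38 to 34.1). Pyruvate kinase (Unigene81583) had 104 tags on day 15, 4 on day 20 and none listed otherwise, and was at least 28-fold higher than on day 10.

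Of 13 unigenes of the citric acid cycle and pyruvate dehydrogenase 1 was compared and 0 passed in any comparison: the succinyl-CoA ligase alpha match (Unigene83595) was 1.42-fold above day 10 on day 15 (1.18 to 1.71). The 9 mitochondrial translation factors and tRNA synthetases and the 1 unigene of mitochondrial dynamics and DNA stayed under the level. The synthetase and factor list summed to 45, 118, 31, 40 and 98 tags, again highest on day 15.

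Among import and carrier genes outside the rule, 1 unigene of each list was abundant enough to compare. The TIM44-like unigene (Unigene82768), which anchors the import motor, had 216 tags on day 10, 97 on day 30 and none listed on days 15, 20 and 60. Against the floor it was at least 89.2-fold lower on day 15 than on day 10 and at least 33.8-fold higher on day 30 than on day 20. The other 6 unigenes of that list stayed under the level, among them a TIM23 match (Unigene90376) with 5 tags on day 15 and 7 on day 60. The inorganic phosphate carrier (Unigene51813), which supplies phosphate to the ATP synthase, had 173, 224, 409, 136 and 104 tags. It was highest on day 20 and 2.88-fold lower on day 30 (2.36 to 3.52). The other 4 unigenes of the carrier list had at most 7 tags in a library.

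A list of 51 other matches that name mitochondria was added after values were seen, and 29 of them stand in the lists above. Of the 22 that do not, 4 were abundant enough to compare: 1 was higher on day 15 than on day 10 and 2 were lower on day 20 than on day 15, and none went the other way. Over all unigenes 20.3% were higher and 27.1% lower in these comparisons. Picked from it after its values were seen, the formation of mitochondrial complexes 1 homolog (Unigene62676) had 20, 207, 15, 55 and 83 tags. It was 8.36-fold higher on day 15 than on day 10 (5.27 to 14) and 10.7-fold lower on day 20 (6.35 to 19.5).

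Markers of other cell types did not share 1 course. Against the 148 scaled TPM of the cilia and sperm list on day 15, 25 unigenes named for myosin, troponin, titin or the like had 69, 108, 119, 67 and 154 tags in order of day. That list is led by a non-muscle myosin heavy chain (Unigene69362), with 35, 57, 59, 10 and 57 of them, and so marks muscle poorly; its 4 troponin unigenes had 2, 13, 23, 7 and 4. The hemocyte list of 4 came down to allograft inflammatory factor 1 (Unigene89534), a gene of activated hemocytes, with 713, 144, 152, 711 and 843 tags; the other 3, matches to granulin, lysozyme and a hemocyte transglutaminase, had 4, 6, 10, 0 and 0 in all. The digestive gland list of 17 was led by a pancreatic lipase-related match (Unigene92137), with 101, 42, 71, 15 and 15 tags, and the other 16, cathepsins and phospholipases among them, had 29, 52, 20, 28 and 21. The 3 egg unigenes had at most 3 tags in a library. The part of any of these in the mitochondrial course was not tested.

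Tags of 1 CATG site that differ at 1 base were found in 4 of the 52 members, by a rule chosen after the values were seen: at least 10 copies and at least 10% of both tags on some day. Among the 13 members at the level 3 had such a pair, and among all 2196 unigenes at the level 583 did (26.5%). The sequences are shown because the variant's share differed between libraries beyond counting error for S25, F1 assembly factor 2 and the L12-like protein. Positions count from 1 at the 5′ end of the tag, and capitals mark CATG.
S25, commoner tag: CATGacattcaagaactttac
S25, variant C10T: CATGacatttaagaactttac
F1 assembly factor 2, commoner tag: CATGatatagacattctacag
F1 assembly factor 2, variant A18T: CATGatatagacattcttcag
L12-like, commoner tag: CATGaattcagacgctcttat
L12-like, variant T21A: CATGaattcagacgctcttaa
Cytochrome c oxidase 5A, commoner tag: CATGttactgaagtgtcacta
Cytochrome c oxidase 5A, variant T20A: CATGttactgaagtgtcacaa

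For S25 (Unigene10325) the variant made up 77 of 141 tags on day 15, or 54.6% (exact binomial interval 46 to 63), and 17 of 40 on day 30, or 42.5% (27 to 59.1). It was 0 of 44 on day 10, 0 of 21 on day 20 and 0 of 73 on day 60, the last with an upper bound of 4.93%. The F1 assembly factor 2 match (Unigene75145) was split on the same days, with 27 of 48 tags on day 15, or 56.2% (41.2 to 70.5), and 5 of 11 on day 30, or 45.5% (16.7 to 76.6), and 0 of 15, 0 of 15 and 0 of 36 on days 10, 20 and 60. The upper bounds of these zeros, 21.8%, 21.8% and 9.74%, lie below the interval of day 15, while that of day 30 overlaps the first pair.

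In the L12-like unigene (Unigene89745) the variant took other days, with 6 of 36 tags on day 10, or 16.7% (6.37 to 32.8), and 55 of 99 on day 60, or 55.6% (45.2 to 65.5). It was 0 of 205 on day 15, with an upper bound of 1.78%. In cytochrome c oxidase 5A (Unigene85283) it was 11 of 94 on day 15, or 11.7% (5.99 to 20), and 3 of 14 on day 20. It was 0 of 12, 0 of 11 and 0 of 15 on the other days, whose upper bounds of 26.5%, 28.5% and 21.8% do not set them apart from day 15. For S25, the F1 assembly factor 2 match and the L12-like protein the libraries therefore differed in tag sequence as well as in tag number. Of the 144 tags of S25 on day 15 the commoner tag gave 64 and the variant 77, while on day 10 the commoner tag gave all 44. What the variants are was not tested.

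**Figure D5:**
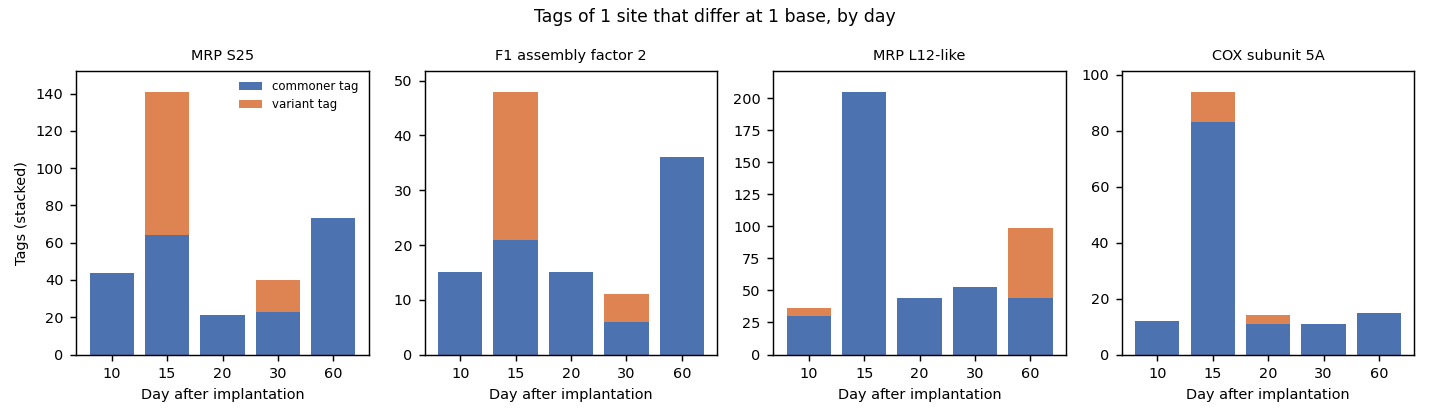
Tags of the commoner sequence (blue) and of its 1-base variant (orange) at 1 site, stacked, by day after implantation, in the 4 members with such a pair (MRP, mitochondrial ribosomal protein; COX, cytochrome c oxidase). S25 and the F1 assembly factor 2 match carry the variant on days 15 and 30, the L12-like protein on days 10 and 60, and COX 5A on days 15 and 20.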

How the data were processed

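Members and gene lists were chosen with earlier results of these data known. Per the file headers, the deposited tables give for each unigene a count of its tags, which the values show to be whole numbers without normalization, and a TPM value computed by the authors over a library total. Listed tags had at least 2 copies. The labels name a TruSeq kit, which does not make such tags; the sources used here do not name the aligner or the assembly. No genome was used.

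Library totals were recovered as count over TPM for unigenes of at least 5000 tags. TMM factors came from edgeR 4.0.16 (R 4.3.3) over all 5 libraries, and all unigenes were compared by the same rule. Ratios carry Clopper-Pearson 95% intervals conditional on both counts. The procedure was tried on simulated Poisson counts with planted changes. These held no spread between libraries, so the trial covers counting error only. Where a library listed no tag, a floor of 3 tags was used. Every member at 10 scaled TPM or more was named, then the 2 highest per role below it and, in the other lists, the 2 largest called ratios per comparison. Nacre markers were added after values were seen. Alternatives were total-tag scaling, DESeq2 1.42.0 size factors, no minimum level, the 3′-most site only, an interval beyond 1-fold, a pseudocount of 5 and leaving out the vacuolar subunits. Python 3.11.15 and matplotlib 3.10.9 did the rest.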

Additional observations from a re-analysis of the deposited data

How the results depend on the processing

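With 1 library per day, replicates could not be left out and no paired analysis was possible because no group has more than 1 sample. The counts of 10 members higher on day 15 and 12 lower on day 20 stayed within 1.5 times under each alternative. The shares of all unigenes, 20.3% and 27.1% in the main setting, moved too. They were 27.1% and 34.7% under total-tag scaling, and 40.1% and 44.6% with intervals beyond 1-fold. At the 3′-most site 11 members were compared. Restricting tags to the 3′-most site reversed cytochrome c oxidase 5A (Unigene85283), at -0.53 on the log2 scale from day 10 to 15 and 1.39 from day 15 to 20, from 0 to 7 tags a library. ATP synthase delta (Unigene79942) lost both calls because its 32 tags of day 15 at that site lie under the minimum level. Its log2 ratios there were 2.76 and -2.00. L37 (Unigene87747) lost the second call, at -1.54. Total-tag scaling moved all log2 ratios by 0.29, -0.37, -0.04, 0.39 and 0.28 in the 5 comparisons. It gave 2 of 8 members higher from day 30 to 60, where 24.1% of all unigenes were, a median there of 0.47, and ratios of all members' summed tags of 3.47 (day 15 over 10), 0.236 (day 20 over 15) and 1.47 (day 60 over 10); median-of-ratios factors gave 3.11 and 0.29 for the first pair. S25 and S26 passed on day 15 under both scalings. A pseudocount of 5 gave medians of 0.15 and -0.19 for days 15 and 20. With no minimum level 1 of 32 members compared was higher from day 20 to 30, against 6.48% of all unigenes. With intervals beyond 1-fold, which calls 40.1% of all unigenes higher on day 15 than on day 10, counts were 3 higher and 2 lower of 7 from day 20 to 30 (36.2% and 42.1% of all), 3 higher of 8 from day 30 to 60 (39.9%), 4 higher and 2 lower of 9 from day 10 to 60 (37.2% and 40.6%), and 12 of 13 peaking on day 15 (20.7%). Leaving out the leading unigene, ATP synthase beta, chosen after seeing the data, gave ratios of summed tags of 5.01, 0.266 and 2.16 for day 15 over 10, 20 over 15 and 60 over 10. The sum then leaned on cytochrome c oxidase IV-like, with 213 of 1047 tags on day 10 and 1492 of 2743 on day 60. Depth is a limit too: 39 of 52 members had at most 48 tags in any library.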
